A study of Mus musculus with 35 samples.

Results

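The surrogate light chain genes Igll1, Vpreb1, Vpreb2 and Vpreb3 were followed through 33 chromatin immunoprecipitation peak lists from mouse pre-B cell progenitors. All peaks whose gene name was one of these 4 were taken, which gave 188 of 1213505 peaks, 99 in 17 IKDN lists and 89 in 16 WT lists. The cells were stromal-adherent pre-B cell progenitors at passages 3 to 8, grown in culture and labelled either IKDN CD2 Cre, from mice of that genotype, or WT, from WT mice. IKDN denotes dominant negative Ikaros, a protein that no longer binds DNA and interferes with other members of the Ikaros family, and CD2-Cre drives recombination in lymphoid cells. Of 35 libraries the 2 inputs had no peak list, and the lists hold between 2802 and 86703 peaks. The labels do not say how many mice gave the cells, whether the mice were pooled, or which stage each culture had reached. The targets mapped in both genotypes numbered 15, namely H3K27ac, H3K4me1, H3K4me2, H3K4me3, H3K36me3, H3K27me3, RNA polymerase II (RNAPII), the Mediator subunit MED1, and the factors E2A, EBF1, PAX5, IRF4, ETS1, Aiolos and TEAD1. RNAPII here is the phosphorylated form marked S5, titled RpIIS5 in the labels. LHX2 and LMO2 were mapped in IKDN cells only, and Ikaros in WT cells only. Since a target was mapped in 1 library per genotype, every difference below is between a pair of libraries and has no replicate check.

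In a pre-B cell the newly made immunoglobulin heavy chain cannot yet pair with a conventional light chain. It pairs with the surrogate light chain, a VpreB protein bound to the protein encoded by Igll1, and the pair reaches the cell surface with the signalling chains Cd79a and Cd79b as the pre-B cell receptor. Vpreb1 and Vpreb2 are closely related mouse genes for the VpreB part, while the product of Vpreb3 is a related protein that binds heavy chains inside the cell. Igll1 and Vpreb1 are known targets of E2A, EBF1 and PAX5, factors that start and hold the B cell programme, and Ikaros is known to act on Igll1 in mouse pre-B cells.

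In GRCm38.p6, Igll1 lies on the minus strand at chr16:16860671-16863985 and Vpreb1 on the same strand at chr16:16868401-16869255, with start sites 5.27 kb apart. Vpreb2 lies 1.11 Mb from Vpreb1 at chr16:17979445-17981274 on the plus strand, and Vpreb3 at chr10:75943024-75949657 on the plus strand. For Vpreb2 and Vpreb3 the start site used for distances lies inside these gene limits. The 250 bases before each start site follow, from RefSeq (GRCm38.p6), since the factor peaks at the promoters sit on them. Capitals mark matches, on either strand, to CCCNNGGG (an EBF1 motif), CANCTG (an E2A motif), GGGAA (the core bound by Ikaros and Aiolos, TTCCC on the other strand), CCGGAA (ETS1), GAAA repeated after a gap of NN (IRF4), GGAATG (TEAD1) and TAATTA (LHX2).
Igll1, chr16:16863986-16864235, minus strand: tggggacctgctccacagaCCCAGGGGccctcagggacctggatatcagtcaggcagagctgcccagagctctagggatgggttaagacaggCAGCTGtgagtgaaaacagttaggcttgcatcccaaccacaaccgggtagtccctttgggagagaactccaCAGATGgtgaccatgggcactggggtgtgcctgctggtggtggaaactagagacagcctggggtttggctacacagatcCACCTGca
Vpreb1, chr16:16869256-16869505, minus strand: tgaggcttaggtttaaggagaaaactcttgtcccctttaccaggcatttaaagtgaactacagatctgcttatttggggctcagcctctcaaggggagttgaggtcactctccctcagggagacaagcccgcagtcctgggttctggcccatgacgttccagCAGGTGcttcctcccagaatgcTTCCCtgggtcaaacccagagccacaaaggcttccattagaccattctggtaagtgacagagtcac
Vpreb2, chr16:17980315-17980564, plus strand: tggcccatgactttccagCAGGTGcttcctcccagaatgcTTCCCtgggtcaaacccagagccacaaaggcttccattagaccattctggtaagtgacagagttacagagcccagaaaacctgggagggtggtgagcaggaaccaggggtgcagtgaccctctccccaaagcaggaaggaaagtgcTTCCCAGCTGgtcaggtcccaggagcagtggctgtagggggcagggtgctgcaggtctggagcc
Vpreb3, chr10:75948050-75948299, plus strand: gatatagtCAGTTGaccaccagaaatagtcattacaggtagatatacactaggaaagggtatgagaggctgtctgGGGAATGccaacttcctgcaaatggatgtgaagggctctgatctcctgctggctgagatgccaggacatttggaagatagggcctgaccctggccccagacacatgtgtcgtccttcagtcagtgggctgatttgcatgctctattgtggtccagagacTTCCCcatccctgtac

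Among 32851 mouse promoter windows of the same length, CCCNNGGG occurred in 11.8%, CANCTG in 44.8%, GGGAA in 56.2%, CCGGAA in 12.0%, the IRF4 motif in 3.0%, GGAATG in 12.6% and TAATTA in 4.8%. Igll1 was the only member whose window held CCCNNGGG, as CCCAGGGG starting 231 bases before the start site. Its window held CANCTG 3 times and GGGAA not at all. The windows of Vpreb1, Vpreb2 and Vpreb3 held 1, 2 and 2 matches to GGGAA. In Vpreb2 a GGGAA match overlaps a CANCTG match, and in Vpreb3 a GGGAA match overlaps the GGAATG match. None of the 4 windows held CCGGAA, the IRF4 motif or TAATTA. The Vpreb1 and Vpreb2 windows share a nearly identical stretch. Windows of 300 bases, which include the printed ones, were shifted along each other. For Vpreb1 and Vpreb2 156 bases aligned, and 153 of these were identical (98.1%). For the other pairs 265 to 295 bases aligned, and 29.5% to 34.7% were identical. Reads from the shared stretch may not be separable, and how such reads were placed is not given in the sources used here. Values that differ between Vpreb1 and Vpreb2 promoters are therefore uncertain.

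Most peaks at these genes overlapped a peak of the same target in the other genotype. Of the 85 IKDN member peaks for targets mapped in both, 69 overlapped a WT peak of the same target by at least 1 bp, and 69 of 80 WT peaks overlapped an IKDN peak. All Vpreb1 peaks were shared, as were all 15 WT peaks of Igll1. The 3 Igll1 peaks found only in IKDN cells were 2 for TEAD1 and 1 for IRF4. Vpreb2 had the most unshared peaks, 11 of 45 in IKDN cells and 10 of 42 in WT cells. The shared part of all peaks of these targets was not computed. Whether these counts differ from those of other genes is therefore not known. Peaks carrying the name Vpreb2 appeared in 31 of the 33 lists, Vpreb3 in 28, Igll1 in 26 and Vpreb1 in 12.

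Covered length, the bases of the genome that the peaks of a gene name span, was compared between genotypes for the 60 pairs of a gene and a target. A pair was called where the lengths differed by at least 1.5 times and at least 300 bp. In IKDN cells 7 pairs were called higher and 5 lower, and 48 had no call, 13 of them without a peak in either genotype. Over all gene names the same rule called 28.9% of pairs higher and 15.98% lower. Of the 47 member pairs with a peak, 14.9% were higher and 10.6% lower, so neither share exceeded the background.

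**Figure D1:**
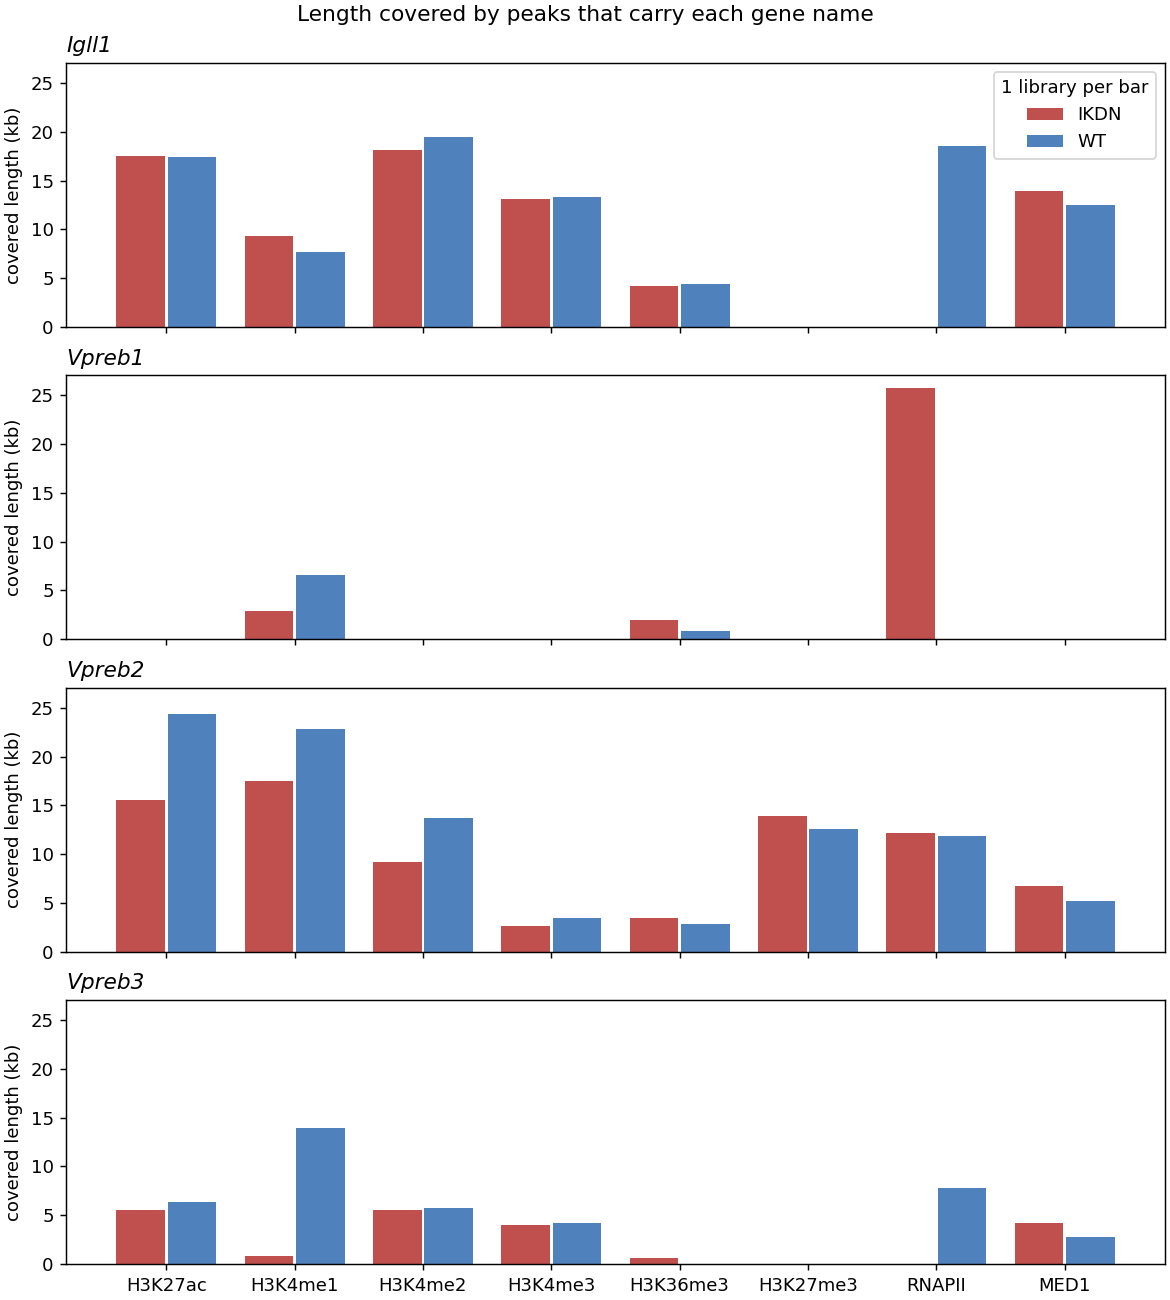
Length in kb covered by peaks that carry each gene name (vertical axis) for 8 targets (horizontal axis), IKDN red and left of WT blue, 1 library per bar. Igll1 bars are of like height in both genotypes for H3K27ac (17.6 and 17.4 kb) and H3K4me3 (13.1 and 13.3 kb), and the RNAPII bar stands under Vpreb1 in IKDN cells (25.8 kb) but under Igll1 in WT cells (18.5 kb).

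Igll1 and Vpreb1 lay under one of the strongest active domains of either genotype. H3K27ac, found at active promoters and enhancers, formed a single peak of 17.6 kb in IKDN cells, rank 4 of 38564 by score, and of 17.4 kb in WT cells, rank 6 of 33378. H3K4me2 covered 18.2 kb in IKDN cells, rank 5 of 39162, and 19.4 kb in WT cells, rank 9 of 38830. H3K4me3, the mark of active promoters, covered 13.1 kb in IKDN cells, rank 4 of 18099, and 13.3 kb in WT cells, rank 14 of 19160. By length this H3K4me3 peak stood at rank 3 in both lists. MED1, the Mediator subunit that gathers at strong enhancers, covered 13.97 kb in IKDN cells and 12.5 kb in WT cells. It was the longest MED1 peak of the WT list, and the rank was 11 of 24239 by length in the IKDN list. By score the MED1 peak had rank 55 in IKDN cells and rank 50 of 12105 in WT cells. All these peaks carry the name Igll1, yet they also cover all of Vpreb1: over the Vpreb1 body and 2 kb on each side, H3K27ac, H3K4me2, H3K4me3, MED1 and RNAPII each covered all 4854 bp in both genotypes. The H3K4me3 libraries of the 2 genotypes are labelled with different antibodies, and the IKDN label is that of the H3K4me1 libraries. Of IKDN H3K4me3 peaks, 87.1% overlapped WT H3K4me3 peaks and 77.6% overlapped WT H3K4me1 peaks. Of WT H3K4me3 peaks, 79.2% overlapped WT H3K4me1 peaks.

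RNAPII gave 2 of the 12 calls at this locus, and both went with the gene name. In IKDN cells the name Vpreb1 had a peak of 25.8 kb (chr16:16853745-16879499, rank 24 of 52467) and in WT cells none. The name Igll1 had none in IKDN cells and a peak of 18.5 kb in WT cells (chr16:16854078-16872626, rank 51 of 51341). Both peaks span both genes, and the centre of the longer IKDN peak lay 2633 bp from the Vpreb1 start site, close to the midpoint between both genes. Over the gene with flanks of 2 kb, RNAPII covered all 7314 bp at Igll1 in both genotypes. The background for RNAPII by name was 35.02% higher and 30.98% lower.

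H3K4me1, found at enhancers and beside promoters, was called lower at Vpreb1, with 2908 bp in IKDN cells and 6543 bp in WT cells (background 28.9% lower). The WT peak ran from upstream of Igll1 across Vpreb1 as 1 block. In IKDN cells the same stretch held 2 peaks, 2910 bp named Igll1 and 2908 bp named Vpreb1. Taken over the Vpreb1 body and 2 kb on each side, H3K4me1 covered 3640 bp in IKDN cells and 4368 bp in WT cells, which was no call. H3K36me3, laid down along transcribed genes, covered 1965 bp at Vpreb1 in IKDN cells and 839 bp in WT cells, a call by name and with 2 kb flanks. With flanks of 10 kb, which reach Igll1 and Top3b, it covered 11104 bp in IKDN cells and 10543 bp in WT cells, which was no call. The H3K36me3 background was 35.7% higher by name and 28.7% by position. At Igll1 H3K36me3 covered 4.14 kb in IKDN cells and 4.41 kb in WT cells. The Polycomb mark H3K27me3 had no peak named Igll1 or Vpreb1 in either genotype.

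**Figure D2:**
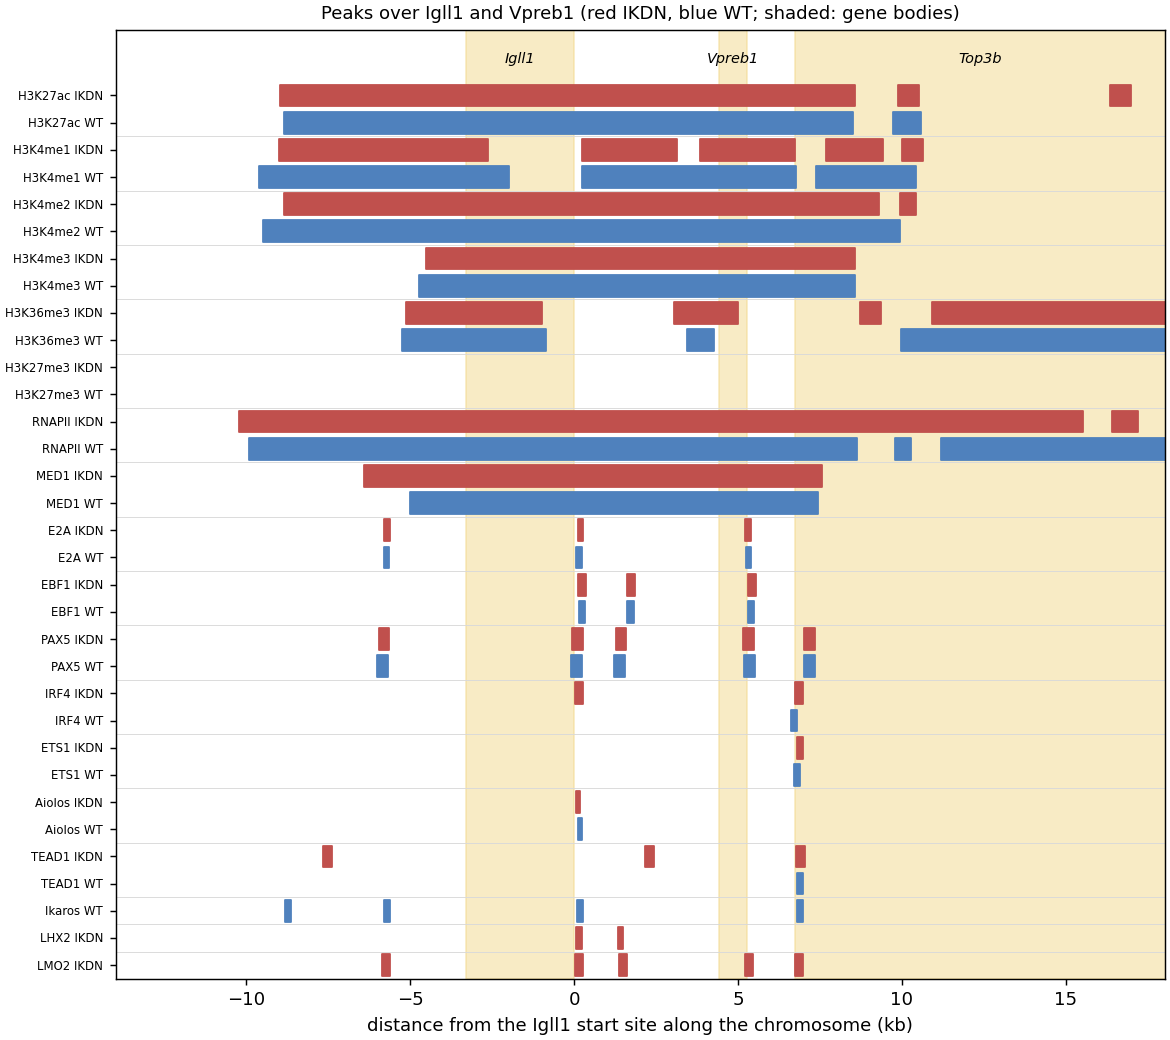
Peaks over Igll1 and Vpreb1 in each list, IKDN red above WT blue, against distance along the chromosome from the Igll1 start site in kb; gene bodies are shaded and both genes run from right to left. The RNAPII blocks of 25.8 kb in IKDN cells and 18.5 kb in WT cells cover both genes, and factor peaks gather just before the start sites.

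At the Igll1 promoter, peaks of 12 of the 17 factor lists met in a site at -158 bp, where a minus sign marks a position before the start site. In IKDN cells these were Aiolos, E2A, EBF1, IRF4, LHX2, LMO2 and PAX5, and in WT cells Aiolos, E2A, EBF1, Ikaros and PAX5. The E2A peak ranked 84 of 15392 in IKDN cells and 62 of 16048 in WT cells. The WT E2A list lacks several chromosomes, so its ranks are not like for like with those of IKDN cells. The EBF1 peak ranked 128 of 33414 in IKDN cells and 291 of 25627 in WT cells. Both were thus high in both genotypes. PAX5 ranked 2556 of 86703 in IKDN cells and 1164 of 82361 in WT cells. Ikaros, mapped in WT cells only, had one of its strongest peaks here, with rank 57 of 42655. Aiolos, the Ikaros relative encoded by Ikzf3, ranked 1499 of 2802 in IKDN cells and 126 of 3514 in WT cells, in lists far shorter than the others. LMO2, a bridging protein, ranked 179 of 15441 at the promoter and 175 further upstream, at -1.49 kb, in IKDN cells. An IRF4 peak stood at the promoter in IKDN cells (rank 3712 of 29589) and none in WT cells.

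The printed motifs lie under some of these peaks. The CCCAGGGG match was 14.5 bp from the centre of the IKDN EBF1 peak and 2.5 bp from that of the WT EBF1 peak. The CAGCTG match that starts 158 bases before the start site was 36.5 bp from the centre of the IKDN E2A peak, 3.5 bp from that of the WT E2A peak, and 1.5 bp from that of the IKDN LMO2 peak. The Ikaros and Aiolos peaks cover no GGGAA in the printed window. A match or its absence describes these letters only. The E2A libraries of the 2 genotypes are labelled with different antibodies, and the IKDN entry is also that of the IRF4 and PAX5 libraries, so E2A differences between genotypes cannot be told apart from the antibody. The same holds for ETS1, whose IKDN entry is also that of the WT E2A and the IKDN LHX2 libraries. IRF4 and PAX5 carry the same entry as each other in both genotypes. Which protein the E2A, IRF4, PAX5, LHX2 and IKDN ETS1 peaks mark thus rests on the target named in the labels.

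Further sites flank Igll1. At -1.46 kb from the start site 6 lists had a peak: EBF1, LHX2, LMO2 and PAX5 in IKDN cells, and EBF1 and PAX5 in WT cells. At 5.73 kb after it, beyond the gene's end, 6 lists had a peak: E2A, LMO2 and PAX5 in IKDN cells, and E2A, Ikaros and PAX5 in WT cells. TEAD1, the Hippo pathway factor that is better known from epithelial and mesenchymal cells, had 2 peaks named Igll1 in IKDN cells, at -2.29 kb and at 7.53 kb, and none in WT cells. Their ranks were 3669 and 14371 of 47764. This was the call for TEAD1 at Igll1 (552 bp in IKDN cells, none in WT cells), and 41.7% of all gene names were called higher for TEAD1.

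At the Vpreb1 promoter, at -68 bp, 7 lists had a peak: E2A, EBF1, LMO2 and PAX5 in IKDN cells, and E2A, EBF1 and PAX5 in WT cells. PAX5 ranked 1993 of 86703 in IKDN cells and 802 of 82361 in WT cells. E2A ranked 1116 of 15392 in IKDN cells and 330 of 16048 in WT cells. EBF1 was lower in its lists, at rank 10393 in IKDN cells and 5643 in WT cells. The CAGGTG match 88 bases before the start site lies in the E2A peaks of both genotypes and in the LMO2 peak. No Ikaros peak carried the name Vpreb1, although the window holds a TTCCC 66 bases before the start site. Another 10 factor peaks, at chr16:16870613-16871336 upstream of Vpreb1 and at the edge of Top3b, carried the name Top3b. They were PAX5, IRF4, ETS1, TEAD1 and LMO2 in IKDN cells, and PAX5, IRF4, ETS1, TEAD1 and Ikaros in WT cells.

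H3K27ac at Vpreb2 had the largest loss of covered length among the calls that were not a change of name. H3K27ac covered 15.5 kb in 3 peaks in IKDN cells and 24.3 kb in 2 peaks in WT cells. The main WT peak was 1 block of 23.5 kb (chr16:17963510-17986990, rank 35 of 33378). In IKDN cells the stretch held peaks of 5668, 500 and 9354 bp, the best at rank 507 of 38564. The IKDN peaks began at 17967341 and left a gap between 17974210 and 17977513. The difference lay upstream of the gene: over the body and 2 kb on each side H3K27ac covered 5761 bp in IKDN cells and 5829 bp in WT cells. The background for H3K27ac was 21.9% lower. The call was lost with a ratio of 2 and with flanks of 10 kb (13418 bp in IKDN cells, 17545 bp in WT cells).

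By gene name H3K4me1, H3K4me2 and H3K4me3 at Vpreb2 were also shorter in IKDN cells, without reaching the call. H3K4me1 covered 17.5 kb in IKDN cells and 22.8 kb in WT cells. H3K4me2 covered 9.16 kb in IKDN cells and 13.7 kb in WT cells, and H3K4me3 covered 2663 bp in IKDN cells and 3477 bp in WT cells. With flanks of 10 kb H3K4me2 was called lower, with 7674 bp in IKDN cells and 11922 bp in WT cells (background 10.7%). Over the gene with flanks of 2 kb, H3K4me3 was called lower, with 1852 bp in IKDN cells and 2977 bp in WT cells (background 13.1%), and the antibody labels of these libraries differ as given above. RNAPII went the other way by a small margin, with 12.2 kb in IKDN cells and 11.8 kb in WT cells. MED1 covered 6.76 kb in 5 peaks in IKDN cells and 5.19 kb in 2 peaks in WT cells, a difference below the call; by the same rule 74.8% of gene names were called higher for MED1, whose IKDN list has 24239 peaks and WT list 12105. H3K36me3 covered 3.45 kb in IKDN cells and 2.80 kb in WT cells. Vpreb2 was the only member with H3K27me3 peaks of its name. Their centres lay 14994 to 33085 bp after its start site in IKDN cells and 16830 to 33040 bp in WT cells. They covered 13.9 kb in IKDN cells and 12.5 kb in WT cells. None reached the gene.

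**Figure D3:**
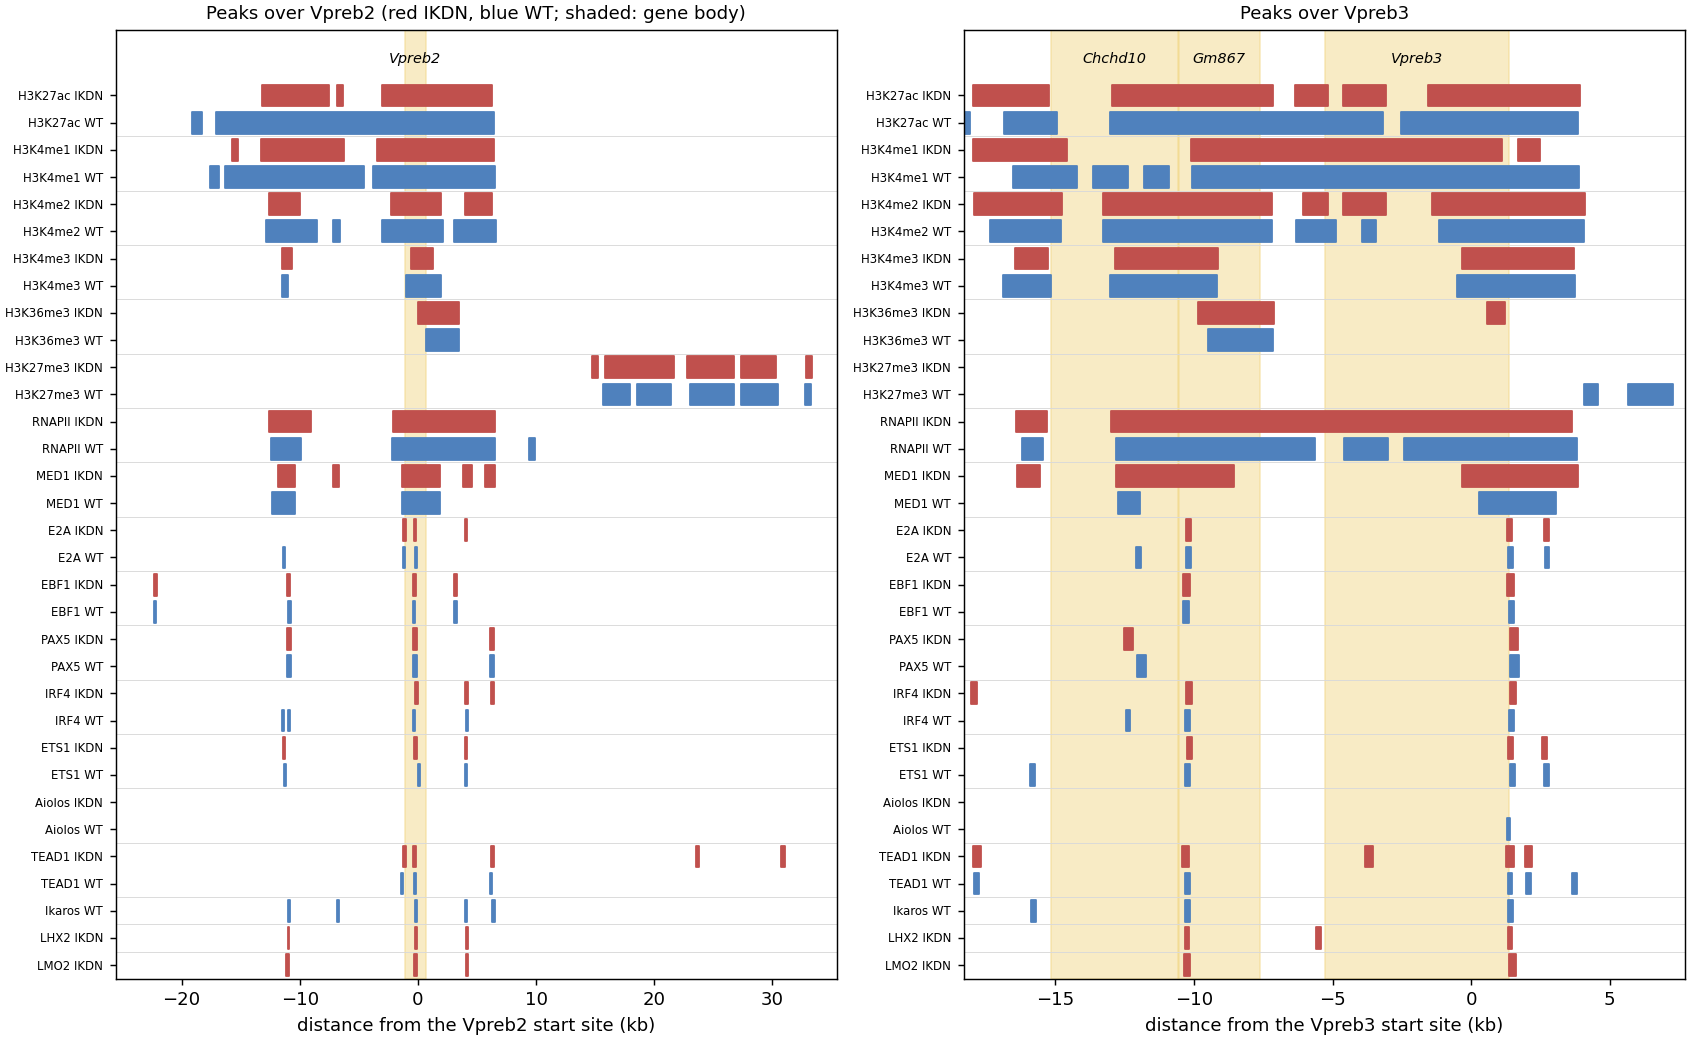
Peaks over Vpreb2 (left) and Vpreb3 (right) in each list, IKDN red above WT blue, against distance from each start site in kb; gene bodies are shaded. The WT H3K27ac block of 23.5 kb at Vpreb2 meets 3 IKDN peaks, and at Vpreb3 an IKDN RNAPII block of 16.6 kb reaches from Chchd10 across Gm867 to Vpreb3.

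The Vpreb2 promoter site, at -209 bp, held peaks of 15 of the 17 factor lists. E2A, EBF1, PAX5 and TEAD1 had overlapping peaks there in both genotypes, LHX2 and LMO2 had peaks in IKDN cells and Ikaros in WT cells. ETS1 and IRF4 also had a peak in each genotype, but these did not overlap. The ETS1 peak lay at chr16:17980275-17980451 in IKDN cells and chr16:17980603-17980781 in WT cells. The IRF4 peak lay at chr16:17980357-17980587 in IKDN cells and chr16:17980158-17980326 in WT cells. PAX5 was the strongest, at rank 454 of 86703 in IKDN cells and 131 of 82361 in WT cells. E2A ranked 1540 in IKDN cells and 287 in WT cells, and Ikaros ranked 904 in WT cells. The CAGGTG match 232 bases before the start site lies in the E2A peaks of both genotypes and the LMO2 peak. The TTCCC match 210 bases before it lies in the WT Ikaros peak. Both matches are part of the stretch that Vpreb1 and Vpreb2 share.

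A second gathering of factors lay at -10.9 kb from the Vpreb2 start site, at chr16:17969066-17969827. H3K27ac covered this whole site in both genotypes, with the 5668-bp peak in IKDN cells and the 23.5-kb block in WT cells. EBF1, ETS1 and PAX5 had peaks there in both genotypes, LHX2 and LMO2 in IKDN cells, and Ikaros in WT cells. E2A and IRF4 had peaks there in WT cells and none in IKDN cells. EBF1 was the strongest, at rank 811 of 33414 in IKDN cells and 460 of 25627 in WT cells. A lone Ikaros peak of WT cells lay at -6.77 kb (rank 15176 of 42655). Its position, chr16:17973709-17973885, was covered by the WT H3K27ac block and, in IKDN cells, by the 500-bp H3K27ac peak. Downstream, at 4.08 kb, 8 lists had a peak, led by ETS1 at rank 1202 of 35517 in IKDN cells and 1011 of 22504 in WT cells, with LHX2 at rank 1452 of 26653 in IKDN cells. The E2A peak at that site was found in IKDN cells only. At 6.30 kb 6 lists had a peak, all with low ranks. TEAD1 had 5 peaks named Vpreb2 in IKDN cells and 3 in WT cells. The IKDN TEAD1 peaks are 276 bp wide and the WT ones 176 bp, a ratio of 1.57, so that 3 peaks in each genotype would pass the call by width alone. The call at Vpreb2 (1380 bp in IKDN cells, 528 bp in WT cells) holds both the wider and the added peaks.

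Vpreb3 had 5 of the 12 calls, and 2 of them went with a change of name. RNAPII had no peak named Vpreb3 in IKDN cells and 7834 bp in WT cells. In IKDN cells 1 RNAPII block of 16.6 kb, chr10:75935301-75951944 at rank 197 of 52467, carried the name of the neighbour Gm867 and covered Vpreb3. Over the Vpreb3 body and 2 kb on each side RNAPII covered 10633 bp in IKDN cells and 9017 bp in WT cells, the opposite direction. H3K4me1 likewise had 821 bp named Vpreb3 in IKDN cells and 13955 bp in WT cells, while an 11.2-kb IKDN peak named Gm867 covered most of the gene. By position H3K4me1 covered 9228 bp in IKDN cells and 10633 bp in WT cells.

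The other 3 calls at Vpreb3 were higher in IKDN cells. H3K36me3 had a single peak of 653 bp in IKDN cells (rank 38320 of 51620) and none in WT cells; over the gene with flanks of 2 kb it covered 819 bp in IKDN cells and 132 bp in WT cells. MED1 covered 4173 bp in IKDN cells and 2759 bp in WT cells, a ratio of 1.51 just past the call. Over the gene with flanks of 2 kb the lengths were 3684 bp in IKDN cells and 2759 bp in WT cells, and there was no call. TEAD1 had 3 peaks in IKDN cells and 2 in WT cells (828 bp and 352 bp). With all factor peaks set to 200 bp, a setting chosen after seeing the data, this call was lost, and the TEAD1 calls at Igll1 and Vpreb2 were kept. H3K27ac covered 5.49 kb in IKDN cells and 6.39 kb in WT cells, H3K4me2 5.50 kb in IKDN cells and 5.75 kb in WT cells, and H3K4me3 4.02 kb in IKDN cells and 4.24 kb in WT cells. These 3 marks thus differed by less than the call. No H3K27me3 peak carried the name Vpreb3. With flanks of 10 kb, whatever the name, H3K27me3 covered 0 bp in IKDN cells and 2346 bp in WT cells. This was called lower (background 42.6%).

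**Figure D4:**
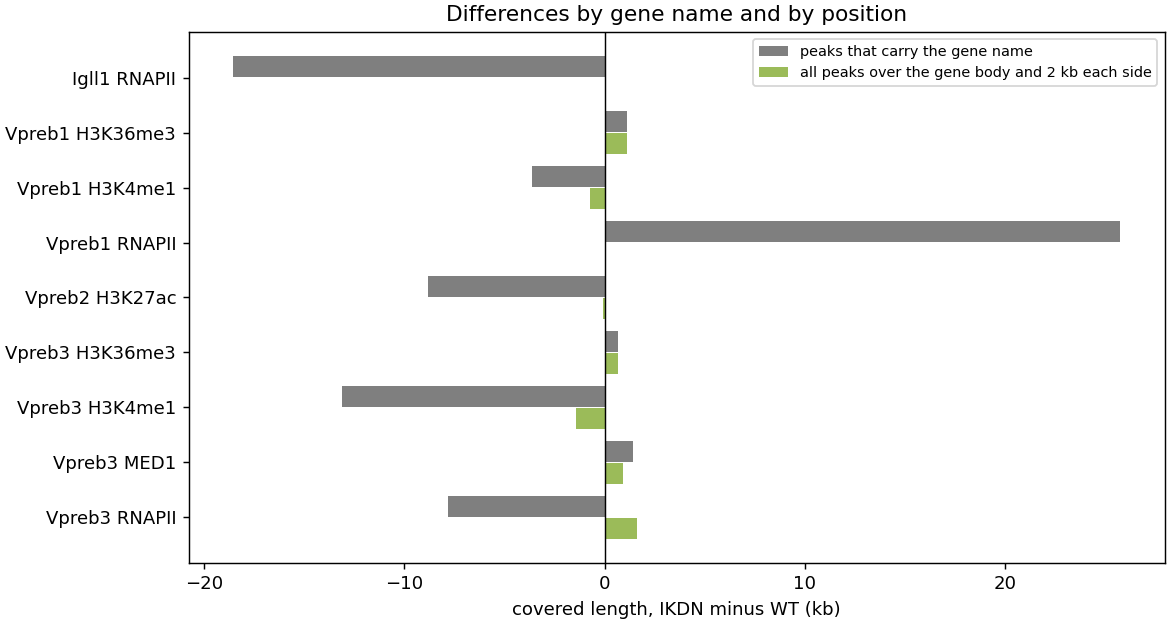
Covered length, IKDN minus WT, in kb (horizontal axis) for the 9 gene and target pairs of marks, RNAPII and MED1 called by gene name; grey bars use peaks that carry the gene name and green bars all peaks over the gene with flanks of 2 kb. The large RNAPII bars by name (25.8 kb at Vpreb1, -18.5 kb at Igll1) have no green counterpart, and at Vpreb3 the RNAPII difference is -7.83 kb by name and 1.62 kb by position.

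The densest factor site of all 4 genes was not at a promoter but 1.43 kb after the Vpreb3 start site, at chr10:75949571-75950038, over the end of the gene. Peaks of 16 of the 17 factor lists met there, and only the IKDN Aiolos list had none. Ikaros had rank 376 of 42655 in WT cells. PAX5 ranked 1123 of 86703 in IKDN cells and 967 of 82361 in WT cells. EBF1 ranked 1321 of 33414 in IKDN cells and 1306 of 25627 in WT cells. IRF4 ranked 1441 of 29589 in IKDN cells and 1171 of 17973 in WT cells. These peaks of PAX5, EBF1 and IRF4 stood between the top 1.17% and the top 6.52% of their lists. TEAD1 ranked 2795 of 47764 in IKDN cells and 7494 of 33532 in WT cells. A smaller site 2.72 kb after the start site held E2A and ETS1 in both genotypes. None of the printed Vpreb3 promoter matches lies under a peak of its own factor.

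Over the 4 genes, factor peaks formed 21 sites when peaks whose centres lay within 250 bp were chained. Of these, 9 held peaks of at least 6 lists and 7 held a peak of 1 list. Seen by factor, E2A, EBF1, PAX5 and ETS1 each had the same number of peaks in both genotypes at each gene. Positions were not all the same: at Vpreb2, E2A and ETS1 each had 1 unshared peak in each genotype. TEAD1 differed most in number, with 10 peaks in IKDN cells and 5 in WT cells. By the rule on covered length 3 of 28 factor pairs were higher and none lower in IKDN cells, and the 3 were all TEAD1, for which 41.7% of gene names were called higher. All 3 were lost where a difference of at least 1000 bp was asked for.

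**Figure D5:**
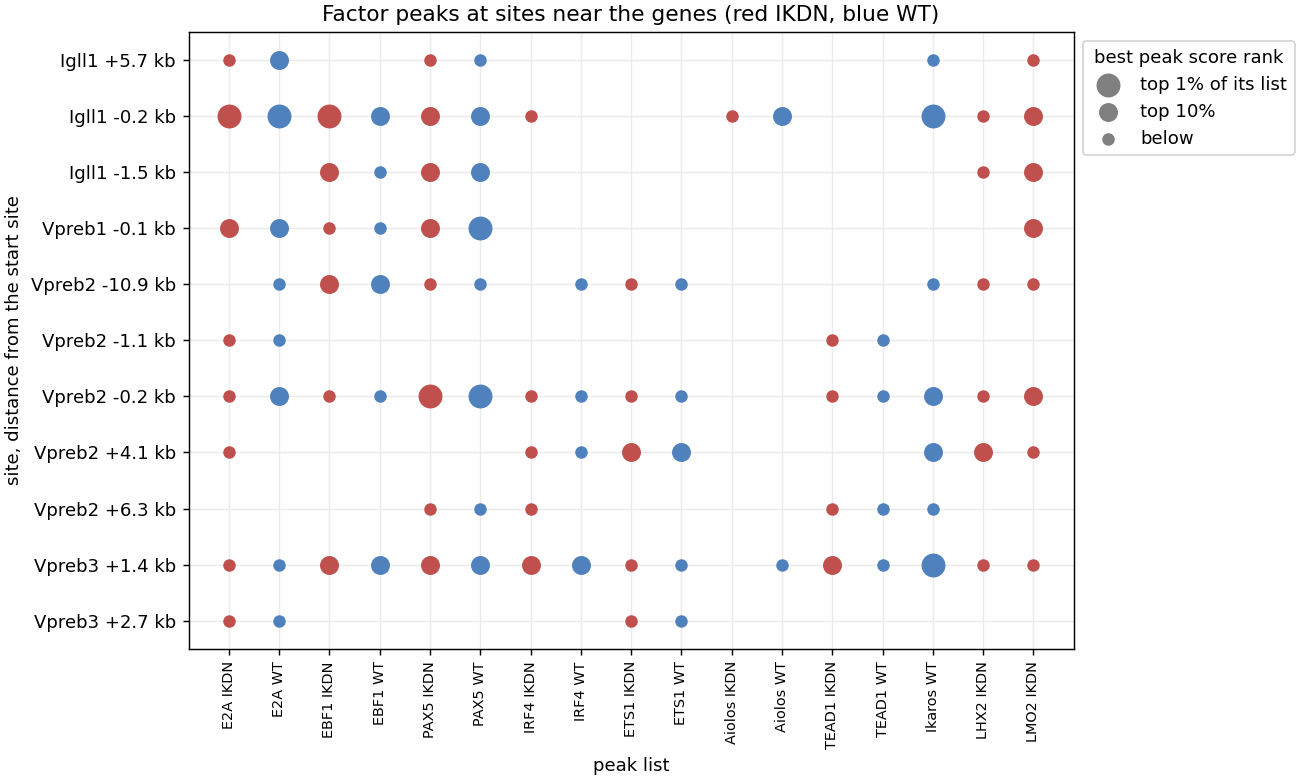
Factor peaks at the sites with peaks of at least 4 lists (vertical axis, distance from the start site in kb) in each of the 17 factor lists (horizontal axis, IKDN red left of WT blue); large points mark a peak in the top 1% of its list by score, medium points the top 10% and small points lower ranks. The Vpreb3 site at 1.43 kb holds 16 lists and the Vpreb2 promoter 15.

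When the gene with flanks of 2 kb was used for every gene and target, whatever name a peak carries, 3 pairs were called higher and 1 lower in IKDN cells. The higher ones were H3K36me3 at Vpreb1, H3K36me3 at Vpreb3 and TEAD1 at Vpreb3, and the lower one was H3K4me3 at Vpreb2. Over all targets and the protein-coding genes with a peak in the window, the same rule called 24.3% higher and 11.99% lower. The background was 28.7% higher for H3K36me3 and 35.7% higher for TEAD1. This setting was chosen after seeing the data. With 2 kb flanks H3K27ac, RNAPII and MED1 gave no call at any of the 4 genes. This setting cannot show a difference where a domain fills the window in both genotypes. H3K27ac and RNAPII did so at Igll1 and Vpreb1, and MED1 at Vpreb1. H3K27ac at Vpreb2 nearly did (5761 bp in IKDN cells, 5829 bp in WT cells). With flanks of 10 kb MED1 was called higher at Vpreb2 (6036 bp in IKDN cells, 3961 bp in WT cells) and at Vpreb3 (8430 bp in IKDN cells, 3555 bp in WT cells), where the background was 78.6% higher.

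Genes that work with the surrogate light chain were read the same way for H3K27ac. Of 10 partners and signalling genes of the pre-B cell receptor named in the lists, none was called higher and 2 lower by name (background 28.5% higher and 21.9% lower), with a median difference of 294.5 bp, against a median of 119 bp over all gene names. Cd79a, a signalling chain of the receptor, had no H3K27ac peak of its name in IKDN cells and 25.8 kb in WT cells, yet over its body and 2 kb on each side 8.36 kb were covered in both genotypes. Blnk, the adaptor that carries the signal on, had 15.7 kb in IKDN cells and 26.4 kb in WT cells, and was called lower by position too (12.0 kb in IKDN cells, 20.99 kb in WT cells). Ighm, the heavy chain gene, names no peak in any list and was left out. By position 3 of the 10 genes were higher (Lyn, Plcg2 and Pik3ap1, named after their values were seen) and 1 lower, where the background was 20.8% higher and 14.96% lower. For MED1 8 of the 10 were called higher and none lower (background 74.8% higher and 9.3% lower).

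Among 10 regulators of the surrogate light chain genes, 2 were called higher and 3 lower for H3K27ac by name (background 28.5% higher and 21.9% lower), with a median difference of -7004 bp. Ikzf1, which codes for Ikaros, had 57.1 kb in IKDN cells and 32.0 kb in WT cells. Ikzf3, which codes for Aiolos, had 15.8 kb in IKDN cells and 2.86 kb in WT cells. Ebf1 had 21.7 kb in IKDN cells and 39.7 kb in WT cells. These 3 kept their direction and call by position, with 42.3 kb in IKDN cells and 19.4 kb in WT cells at Ikzf1, 29.3 kb in IKDN cells and 7.83 kb in WT cells at Ikzf3, and 69.9 kb in IKDN cells and 129.8 kb in WT cells at Ebf1. Spib, an ETS family factor, had 2.55 kb in IKDN cells and 17.4 kb in WT cells by name. By position it had 8.77 kb in IKDN cells and 10.1 kb in WT cells, which was no call. Of the 10 regulators 2 were called higher and 2 lower by position (background 20.8% higher and 14.96% lower). The lower one besides Ebf1 was Tcf3, named after its values were seen (5.97 kb in IKDN cells, 11.9 kb in WT cells). Tcf3 was also lower by name (5.30 kb in IKDN cells, 15.9 kb in WT cells). For MED1 7 of the 10 were higher and 1 lower, near the background of 74.8% and 9.3%.

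B lineage markers were present in both genotypes. Of 10, 8 had an H3K27ac peak of their name in IKDN cells and 10 in WT cells, with sums of 125.7 kb in IKDN cells and 222.0 kb in WT cells. By name 0 were called higher and 6 lower (background 28.5% higher and 21.9% lower), and by position 0 and 4 (background 20.8% and 14.96%). Rag1 was at 0 in IKDN cells, and Cd79a was at 0 there by name only. Of 8 stromal fibroblast markers, 6 had a peak in IKDN cells and 7 in WT cells (33.7 kb in IKDN cells, 29.6 kb in WT cells), with Col1a2 at 0 in both and Col3a1 at 0 in IKDN cells. By name 1 was called higher and 4 lower, and by position 0 and 5. The higher one was Cxcl12 (15.9 kb in IKDN cells, 5.53 kb in WT cells by name), without which the IKDN sum would not be the larger. For the 8 stromal markers H3K4me3, whose antibody labels differ, summed to 4.01 kb in IKDN cells and 21.2 kb in WT cells. By name 0 were called higher and 6 lower for it (background 10.2% higher and 18.7% lower). H3K4me1 went the other way, with 77.2 kb in IKDN cells and 43.9 kb in WT cells. Of this Cxcl12 gave 47.5 kb in IKDN cells and 18.5 kb in WT cells. H3K4me2 summed to 47.2 kb in IKDN cells and 34.8 kb in WT cells, and Cxcl12 gave 21.9 kb and 12.5 kb of this. H3K27me3 summed to 341.7 kb in IKDN cells and 60.2 kb in WT cells, of which Cxcl12 gave 250.4 kb and 21.1 kb. By name 5 of the 8 were called higher and 2 lower for H3K27me3 (background 34.1% higher and 41.7% lower). Of 5 T cell markers named in the lists 2 had an H3K27ac peak in each genotype (4.50 kb in IKDN cells, 12.9 kb in WT cells), with Cd3e, Cd3g and Cd8a at 0 in both, and of 5 myeloid markers 4 in each (16.9 kb in IKDN cells, 16.1 kb in WT cells), with Mpo at 0 in both. Of the markers of light chain expressing B cells, Ms4a1 had 500 bp in IKDN cells and none in WT cells. Igkc, Iglc1 and Trac name no peak in any list, so their loci were not read. The part of other cell types in the differences above was not tested.

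The pattern of covered length across all 33 lists was compared with that of 8347 gene names, as a correlation of log2(bp + 100) centred within each list. Closest to Igll1 were Pip5k1c (r = 0.91), Tspan13 (0.78) and Kif21b (0.77). Closest to Vpreb1 were Tmem138 (0.84), Gsk3b (0.76) and Eme1 (0.76). Closest to Vpreb2 were an entry stored as a calendar date (0.86), B3gnt2 (0.85) and Dad1 (0.82), and closest to Vpreb3 were Mrpl52 (0.88), 0610011F06Rik (0.86) and Dgcr8 (0.85). Among the members, Igll1 and Vpreb3 had the highest value (0.71), while the neighbours Igll1 and Vpreb1 had a negative one (-0.38). A peak over both of these neighbours is listed under 1 name. These are descriptions over lists that share targets and peak widths.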

How the data were processed

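Chromatin immunoprecipitation followed by sequencing was used in stromal-adherent pre-B cell progenitors, and the 33 peak lists available were analysed (17 IKDN, 16 WT). HOMER, STAR, BWA and bcl2fastq 1.8.3 stand in the submitters' processing notes, with the builds mm10 and mm9 and no roles; read placement and peak calling settings are not given in the sources used here. Per the file headers, each deposited row holds a peak, a peak score, the distance from the peak centre to a transcription start site (another quantity, in bp) and a gene name. The unit of the deposited peak value is a score whose scale is not stated, so peaks were ranked within a list and scores were compared between lists only in a single alternative. The start sites worked out from these distances lay within 1000 bp of the GRCm38.p6 start site for 96.5% of 866598 peaks, so positions were read as mm10. Coordinates of peaks are as deposited.

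Peaks whose gene name was Igll1, Vpreb1, Vpreb2 or Vpreb3 were taken with Python 3.11.15, pandas 2.3.3 and numpy 2.4.6. Covered length is the union of peak lengths. A gene was called higher or lower in IKDN cells where the lengths differed by at least 1.5 times and at least 300 bp. These are thresholds, not tests, since each genotype and target has 1 library. The background is the same call over all gene names with a peak in either list, on chromosomes complete in both lists. By position, the background is taken over protein-coding genes with a peak over the gene or its flanks in either list. The WT E2A, WT ETS1 and IKDN PAX5 lists lack all or part of some chromosomes, but not 10 and 16, which carry the genes described. The script was tested on simulated peak lists. The genes, the lists beside them and the alternatives were chosen with earlier results of these data known. The genes named beside the 4 are, for H3K27ac, up to 2 with the largest gain and up to 2 with the largest loss among those called in each of 2 lists, neighbours whose name a nearby peak carries, and the 3 names with the most similar coverage. The depth of the libraries is unknown, so no interval is given, and the number of peaks per list stands in its place.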

Additional observations from a re-analysis of the deposited data

How the results depend on the processing

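Of the 60 pairs of a gene and a target, 7 were called higher and 5 lower in IKDN cells. With at least 1000 bp of difference 3 were higher and 5 lower. With a ratio of 2 they were 6 and 4, with peaks of the name within 10 kb of the start site 10 and 6, with equal peak numbers 7 and 5, and with the number of peaks in place of length 9 and 5. With all peaks over the gene and flanks of 10 kb they were 6 and 2, which kept 4 of the 12 calls, lost 8 and added 4, with the top-scored 50% of peaks 6 and 8, and with summed scores 11 and 15, which takes the score scales of both lists as equal. 3 settings were chosen after seeing the data. Over the gene and flanks of 2 kb 3 were higher and 1 lower, with 3 calls kept, 9 lost and 1 added, with Igll1 and Vpreb1 as 1 locus 5 and 3, and with factor peaks set to 200 bp 6 and 5. Among called pairs, the direction turned for RNAPII at Vpreb3 (1645 bp more in IKDN with 10 kb flanks, 1616 bp more with 2 kb flanks), for RNAPII at Igll1 (1483 bp more with 10 kb flanks) and for the number of H3K27ac peaks at Vpreb2 (1 more in IKDN). Uncalled differences also changed sign with 10 kb flanks, among them Igll1 H3K4me1 (1652 bp more in IKDN by name, -2877 bp with flanks), Igll1 H3K36me3 (-264 and 1468 bp) and Vpreb3 H3K4me2 (-248 and 812 bp). By construction the flank settings count a domain at each gene it covers, whichever gene name it carries. The cause of the other changes was not tested. With an overlap of 50% of both peaks, 57 IKDN peaks and 58 WT peaks were shared, against 69 and 69 at 1 bp. No paired analysis was possible because each genotype and target has 1 library and the labels number no replicates. No library could be left out for the same reason. Thresholds on length cannot show a change in the height of a domain, and a gene without a peak is only one where none was listed.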
